A study of Mus musculus with 11 samples.

Results

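The genes described here are *Trp53*, which encodes the transcription factor p53, its inhibitors *Mdm2* and *Mdm4*, and 7 genes that p53 is known to activate, namely *Ccng1*, *Cdkn1a*, *Trp53inp1*, *Phlda3*, *Bbc3*, *Aen* and *Zmat3*. These 10 genes were chosen by name, with earlier results of these data known, among the 54146 genes listed for each embryo. Each symbol matched 1 gene. RNA was sequenced from 11 single mouse embryos at the 8-cell stage (E2.5, C57BL/6), collected after mating *Prdm10*Δ/+ mice with each other. The 5 mutants were *Prdm10* KO embryos, with exon 5 deleted on both alleles, and the 6 controls were wild-type or heterozygous embryos, which the labels do not tell apart. The genotype was read by qRT-PCR for exon 5 in the cDNA of each embryo. Each library held the RNA of 1 whole embryo, so fewer cells of a kind and less RNA per cell cannot be told apart. Batch 1 (16 cycles of PCR pre-amplification) held 3 controls and 2 mutants, and batch 2 (13 cycles) held 3 controls and 3 mutants. The batch of each embryo was read from its sample title, which itself gives no cycle number. Each embryo is its own animal, so the errors given below include the differences between embryos.

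p53 is kept at a low level in unstressed cells because MDM2 marks it for degradation and MDM4 masks its activation domain. When DNA is damaged, or when ribosome production or growth is disturbed, this inhibition is relieved and p53 binds response elements in its target genes. The products of these genes halt the cell cycle, repair DNA or start apoptosis, and MDM2 is itself one of them, which closes a feedback loop. p53 restrains the survival of damaged cells in the early embryo, and loss of *Mdm2* is lethal around implantation unless *Trp53* is removed as well.

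The p53 response element is made of a pair of adjoining 10-base half-sites, each with a core of C, then 2 bases that are each A or T, then G. It was searched in RefSeq promoter windows of GRCm38.p6, which run from 250 bases before to 50 bases after a transcript start. The consensus reads the same on both strands, so 1 search covers both. Windows were found for 8 of the 10 genes, the exceptions being *Trp53inp1* and *Zmat3*. A 20-base element with both cores intact and at most 3 mismatches elsewhere occurred in 0.572% of all 32851 windows and in windows of 4 of the 8 genes. They are shown because p53 binds DNA at elements of this kind, with the cores in capitals and each read along the strand of its gene.
*Cdkn1a*, chr17:29090928-29090947, plus strand, 1 mismatch: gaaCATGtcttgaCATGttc
*Aen*, chr7:78895937-78895956, plus strand, 3 mismatches: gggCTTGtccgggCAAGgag
*Bbc3*, chr7:16309486-16309505, plus strand, 3 mismatches: ctgCAAGccccgaCTTGtcc
*Trp53*, chr11:69580284-69580303, plus strand, 3 mismatches: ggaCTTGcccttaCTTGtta
The *Cdkn1a* element began 51 bases before the transcript start of its window, the *Bbc3* element 97 bases before and the *Trp53* element 75 bases before. The *Trp53* element also lies in the window of *Wrap53*, a gene that starts 103 bases away on the other strand. A single half-site with no mismatch occurred in 8.36% of windows and in those of 5 of the 8 genes. *Ccng1* and *Mdm2* had a half-site and no 20-base element in these windows.
*Ccng1*, chr11:40755462-40755471, minus strand, half-site: gggCAAGcct
*Mdm2*, chr10:117710935-117710944, minus strand, half-site: gaaCTTGcct
No match was found in the windows of *Mdm4* and *Phlda3*. These matches describe the letters in the windows and were not tested for binding. Elements outside the windows, or with bases between the half-sites, were not searched, so a gene without a match here may have one elsewhere.

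The summed expected counts ranged from 3534735 to 8265840 per embryo. *Prdm10* itself, the check of the labels, lay between 11.1 and 24.8 TPM (a transcript level scaled to gene length and library total) in controls and between 4.88 and 8.16 TPM in mutants, with no overlap. Its effective length, which enters the TPM, was 2565 to 3357 in controls and 4348 to 5051 in mutants. Its normalised read counts overlapped, with 124 to 381 in controls and 104 to 202 in mutants. Their difference did not pass the test (log2 fold change -0.66 ± 0.26 (SE), DESeq2 adjusted p = 0.207). With limma on log2(TPM + 1) *Prdm10* did not pass either (-1.19, adjusted p = 0.0983). It passed in DESeq2 with an offset for the effective gene length of each library (-1.29 ± 0.24 (SE), DESeq2 adjusted p = 2.95e-05). All 12 marker genes of the 8-cell embryo were above 1 TPM in at least 1 embryo. Of 7 markers of cumulus and granulosa cells, *Has2* and *Ptx3* were at 0 in every embryo, while *Amhr2* lay between 19.3 and 80.9 TPM. Markers of blood cells summed to 0.23 to 132 TPM in controls and 0.68 to 42.9 TPM in mutants, and those of oviduct epithelium to 0.29 to 25.2 TPM and 0.33 to 32.9 TPM. The highest blood sum was that of control replicate 1, where *Lyz2*, also highest there, made up 121 of the 132 TPM. Its oviduct sum of 25.2 TPM was likewise mostly *Ovgp1* (24.2 TPM). This embryo had the highest *Ptprc* (2.90 TPM) and *Oosp1* (48.3 TPM) and the lowest *Pou5f1* (34.2 TPM). Its summed level of the 12 embryo markers was 7123 TPM, within the range of the controls (6418 to 8209 TPM, median 7237), and its *Nanog* (40.2 TPM) was the highest of batch 2. Of the globin genes on the blood list, *Hba-a1* was also highest in that embryo (8.03 TPM), and *Hbb-bs* was at 0 there and in every other embryo except mutant replicate 3. *Alas2*, on the same list, was at 0.20 TPM in control replicate 1 and highest in mutant replicate 3 (2.20 TPM). By batch, the blood sum was 0.23 to 5.42 TPM in batch 1 and 11.9 to 132 TPM in batch 2, and the oviduct sum 0.29 to 1.02 TPM and 1.59 to 32.9 TPM. The cumulus and granulosa sum went the other way, with 42.9 to 81.1 TPM in batch 1 and 19.4 to 38.4 TPM in batch 2. The part of these signals in the results below was not tested.

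Of the 10 genes, *Ccng1* rose in the mutants, and no other gene passed the threshold in the comparison of all 11 embryos. *Ccng1* was 3.24-fold higher. *Aen* and *Zmat3* had estimates of 1.57-fold and 2.35-fold that missed the threshold (DESeq2 adjusted p = 0.0682 and 0.0673). The log2 differences of *Trp53*, *Mdm2*, *Mdm4* and *Trp53inp1* were smaller than or near their standard errors. This count changed when single embryos were left out, to 2 without mutant replicate 2, to 2 without control replicate 6 and to 6 of 9 without control replicate 1, an embryo singled out after the values were seen (0.308%, 0.432% and 0.531% of all genes were called higher in these fits). A gene was called changed when its mean normalised count over all embryos (baseMean) was above 10 and its adjusted p was under 0.05. With DESeq2, 9 of the 10 genes could be tested, *Bbc3* having too few reads. DESeq2 called 1 of the 9 higher, where 0.574% of all 10448 genes tested were called higher, and 0 of the 9 lower, where 0.890% were. At an unadjusted p under 0.05, 4 of the 9 were higher, against 5.74% of all genes, and 0 were lower, against 6.20%. The edgeR quasi-likelihood test also called *Ccng1* and no other of the 9, where it called 0.0759% of all genes higher. limma on log2(TPM + 1) called 0 of the 10 in either direction, where it called 0.00857% of all genes higher and 0.180% lower, with 5 higher and 0 lower at an unadjusted p under 0.05, against 4.71% and 4.89% of all genes. The log2 fold change was above 0 for 8 of the 10 genes, with a median of 0.48, where 49.8% of all genes tested were above 0 and their median was -0.0012. Because the 10 genes were chosen with earlier results of these data known, these contrasts with all genes are descriptions only.

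**Figure D1:**
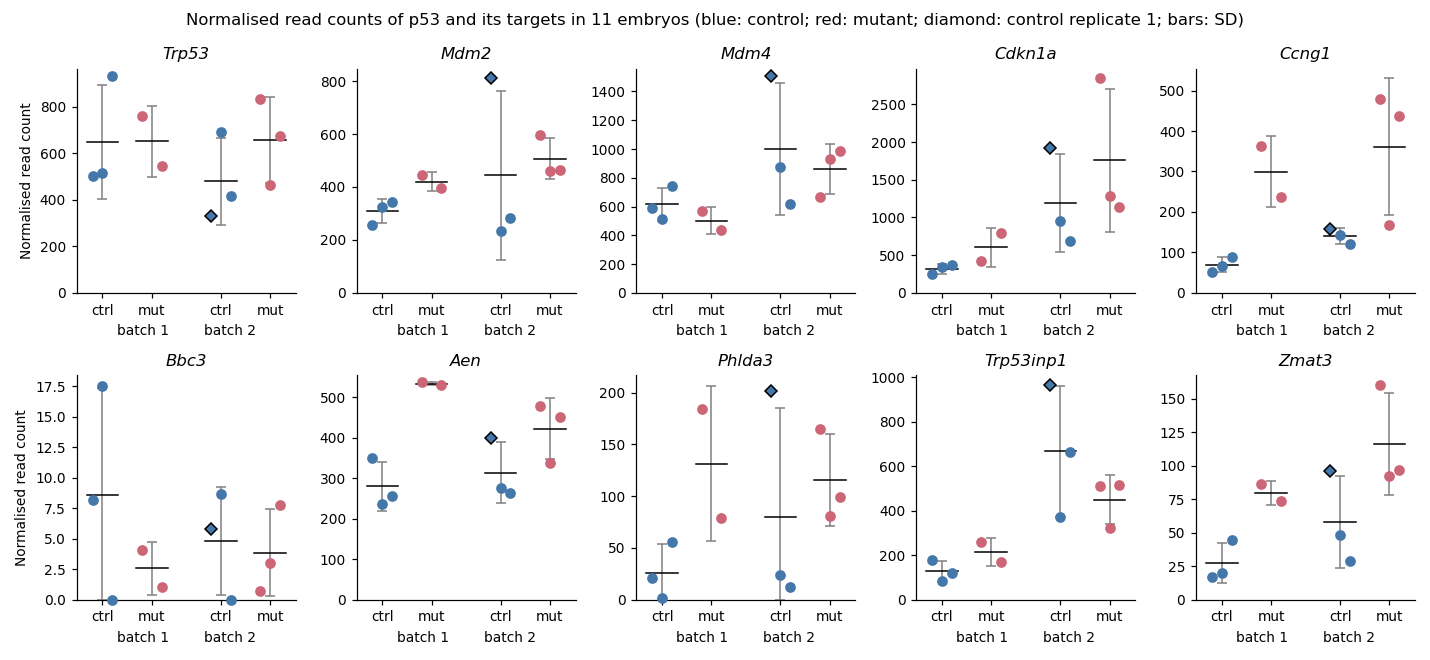
Normalised read counts of the 10 genes (vertical axis, linear from 0) by batch and group, with 1 point per embryo, a line at the mean and a bar of 1 SD, cut at 0, on each side. Mutants (red) of *Ccng1* lie above all controls (blue), and control replicate 1 (diamond) is the highest of the 11 embryos for *Mdm2*, *Mdm4*, *Phlda3* and *Trp53inp1*.

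Levels were compared between genes on the TPM scale. *Cdkn1a*, the cyclin-dependent kinase inhibitor p21, had the highest median over the 11 embryos (188 TPM, range 60.7 to 659) and was the highest of the 10 genes in 8 embryos, *Trp53* being the highest in the other 3, control replicates 4 and 6 and mutant replicate 4, which are all of batch 1. The batch 1 controls averaged 77.5 TPM for *Cdkn1a* and 87.5 TPM for *Trp53*, and the batch 2 controls 280.4 and 57.3 TPM, so the order of these genes was not the same in both batches. *Trp53* followed with a median of 74.7 TPM (38.8 to 118), then *Mdm4* with 45.0 TPM (31.2 to 145), *Mdm2* with 31.7 TPM (19.1 to 63.7) and *Aen* with 31.3 TPM (23.6 to 57.2). Lower levels were measured for *Trp53inp1* (median 13.1 TPM, 6.90 to 39.2), *Phlda3* (11.4 TPM, 0.63 to 38.0), *Ccng1* (9.26 TPM, 3.85 to 28.3), *Zmat3* (2.49 TPM, 0.59 to 4.63) and *Bbc3* (0.59 TPM, 0 to 5.15). The ranges of each pair of neighbours in this order overlapped. The order pools both groups and both batches and did not hold in each. The batch 2 controls averaged 87.8 TPM for *Mdm4*, above their *Trp53*. *Ccng1* averaged 6.37 TPM in controls and 20.7 TPM in mutants, and *Trp53inp1* 17.5 and 15.0 TPM.

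The first question was whether *Trp53* and its inhibitors differed between the groups. *Trp53* (ENSMUSG00000059552.13) occupies 69580359 to 69591873 of chromosome 11 on the plus strand of GRCm38. In batch 1, normalised read counts of *Trp53* were 503, 514 and 933 in controls and 759.9 and 544 in mutants. In batch 2 they were 330, 692 and 417 in controls and 836, 465 and 674 in mutants. The groups overlapped in both batches, and the lowest value of all was that of control replicate 1. Its log2 fold change of 0.26 ± 0.26 (SE), with a 95% interval from -0.24 to 0.76, did not pass the test (DESeq2 adjusted p = 0.767). This interval leaves room for a difference in either direction. Transcript level is also not the main point of control of p53, which is regulated through protein stability, and no protein was measured here. *Wrap53*, which starts 103 bases from *Trp53* on the opposite strand and does not overlap it, had a log2 fold change of 0.09 ± 0.21 (SE, DESeq2 adjusted p = 0.933). Both genes are in the study's list of genes bound by PRDM10 in embryonic stem cells.

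*Mdm2* encodes the ubiquitin ligase that removes p53 and is on chromosome 10 from 117688875 to 117710758 (minus strand). In batch 1, *Mdm2* had normalised read counts of 256, 326 and 342 in controls and 447 and 394 in mutants, with no overlap. Here and for the genes below, the share of all genes without overlap in batch 1 alone was not counted. In batch 2 the controls had 813 (replicate 1), 235 and 283, and the mutants 596, 459.6 and 464. All 3 mutants of batch 2 were thus above 2 controls and below replicate 1. With all embryos the log2 fold change was 0.30 ± 0.28 (SE, DESeq2 adjusted p = 0.743). Without control replicate 1 it was 0.71 ± 0.19 (SE), and *Mdm2* passed the threshold (DESeq2 adjusted p = 0.0258). In the other 10 fits that left out 1 embryo it was not called, and its log2 fold change fell to 0.17 ± 0.27 without control replicate 2 and to 0.20 ± 0.29 without control replicate 3.

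*Mdm4* encodes the p53 inhibitor related to MDM2 and is on chromosome 1 from 132959484 to 133030561 (minus strand). Batch 1 gave normalised read counts of 591, 516 and 739.8 in controls and 569 and 436 in mutants. In batch 2 they were 1505 (replicate 1), 877 and 614 in controls and 664, 931 and 987 in mutants. The groups overlapped in both batches. *Mdm4* had a log2 fold change of -0.25 ± 0.23 (SE, DESeq2 adjusted p = 0.738) with all embryos and of -0.04 ± 0.20 without control replicate 1, and it was called in neither fit. A processed pseudogene, *Gm29257*, overlaps *Mdm4* on the other strand over 639 bases, with a mean expected count of 5.41, and the counting is not stated to use strand.

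The next comparison was that of the cell cycle genes. *Ccng1* encodes cyclin G1, which recruits a phosphatase to MDM2, and is on chromosome 11 from 40748552 to 40755311 (minus strand, ENSMUSG00000020326.7). In batch 1 the controls had normalised read counts of 52.5, 66.0 and 89.3 and the mutants 363 and 237. In batch 2 the controls had 158, 142 and 120.1 and the mutants 479, 167 and 437. Every mutant was above every control, although by little for mutant replicate 2 (167) against control replicate 1 (158). This separation was found for 1 of the 9 tested members and for 0.287% of all genes tested. The 6 controls averaged 105 ± 42.4 (SD) and the 5 mutants 337 ± 132 (SD). This gave a log2 fold change of 1.70 ± 0.30 (SE) and an adjusted p of 8.06e-06 by DESeq2 and of 0.0154 by edgeR. Within batches it was 2.12 ± 0.40 in batch 1 (DESeq2 adjusted p = 7.11e-05) and 1.37 ± 0.41 in batch 2 (DESeq2 adjusted p = 0.112). The call held in each of the 11 fits that left out 1 embryo, with log2 fold changes from 1.50 to 1.91. It was lost with limma on log2(TPM + 1), where the difference was 1.48 ± 0.31 (SE, adjusted p = 0.0966).

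*Cdkn1a*, whose product stops the cell cycle by inhibiting cyclin-dependent kinases, is on chromosome 17 from 29090976 to 29100727 (plus strand) and carries the element closest to the consensus shown above. Its normalised read counts in batch 1 were 246, 343 and 364 in controls and 417 and 789 in mutants, with no overlap. In batch 2 the controls had 1928 (replicate 1), 959 and 686 and the mutants 2847, 1291 and 1133. All 3 of these mutants were above control replicates 2 and 3, and 1 of them was above replicate 1. *Cdkn1a* had a log2 fold change of 0.72 ± 0.30 (SE, DESeq2 unadjusted p = 0.0168, adjusted p = 0.267). It was 1.01 ± 0.27 (SE, DESeq2 adjusted p = 0.0236) without control replicate 1. Leaving out mutant replicate 1 or 5 moved it the other way, to 0.49 ± 0.30 and 0.51 ± 0.32 (DESeq2 adjusted p = 0.541 and 0.622). A transcript of the annotation overlaps *Cdkn1a* on the other strand over 1046 bases and is not among the genes of the tables, so reads from it could not be separated.

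**Figure D2:**
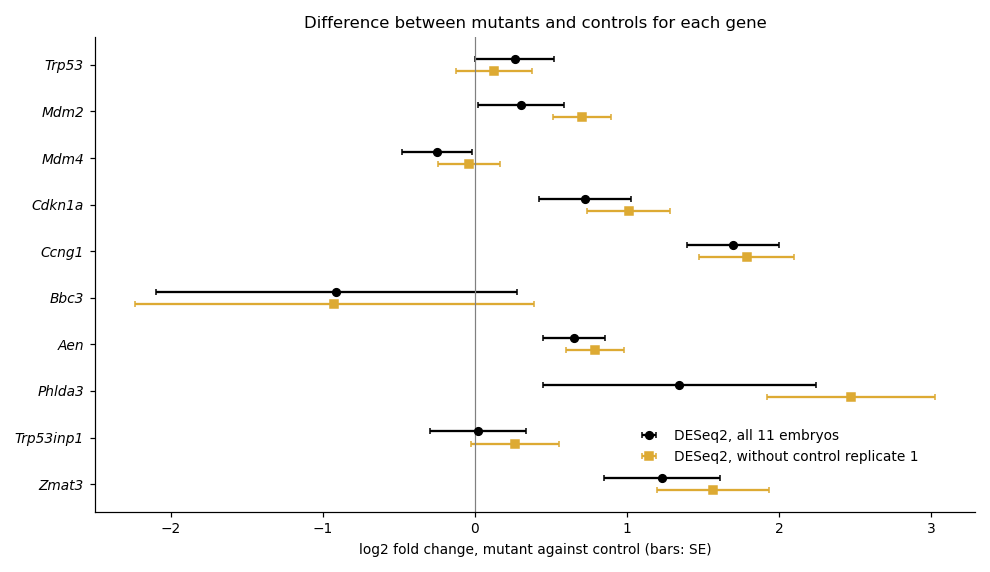
Log2 fold change of each gene between mutants and controls (horizontal axis) with bars of 1 SE, from all 11 embryos (black circles) and without control replicate 1 (yellow squares). Leaving this embryo out moved *Phlda3* from 1.34 to 2.47, *Mdm2* from 0.30 to 0.71 and *Ccng1* from 1.70 to 1.79.

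The remaining genes act in cell death, growth signalling and RNA stability. *Aen* encodes an exonuclease that takes part in DNA breakdown during apoptosis (chromosome 7, 78895854 to 78911209, plus strand). *Aen* had normalised read counts in batch 1 of 349, 236 and 256 in controls and 537 and 531 in mutants. In batch 2 they were 400.2 (replicate 1), 276 and 264 in controls and 478, 337 and 452 in mutants. The batch 1 groups did not overlap, and in batch 2 mutant replicate 2 lay below control replicate 1. For *Aen* the log2 fold change was 0.65 ± 0.20 (SE, DESeq2 unadjusted p = 0.00137, adjusted p = 0.0682). *Aen* passed the threshold without control replicate 1 (0.79 ± 0.19, DESeq2 adjusted p = 0.0058) and without mutant replicate 2 (DESeq2 adjusted p = 0.0403), where 0.308% of all genes were called higher.

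*Zmat3* encodes a zinc finger RNA-binding protein that acts on RNA stability and splicing (chromosome 3, 32334792 to 32366014, minus strand). It had normalised read counts of 17.2, 20.2 and 44.6 in the batch 1 controls and 86.0 and 73.5 in the batch 1 mutants. The batch 2 controls had 96.1 (replicate 1), 48.6 and 29.1, and the batch 2 mutants 160.0, 92.2 and 96.6. Of the 5 mutants, 2 were above every control. All 5 were above every control other than replicate 1, a pattern whose share of all genes was not counted. With all embryos the log2 fold change was 1.23 ± 0.38 (SE, DESeq2 unadjusted p = 0.00132, adjusted p = 0.0673), and *Zmat3* passed the threshold without control replicate 1 (1.57 ± 0.37, DESeq2 adjusted p = 0.00391) and without control replicate 6 (DESeq2 adjusted p = 0.0401), where 0.432% of all genes were called higher.

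*Phlda3* encodes a pleckstrin homology protein that restrains AKT signalling (chromosome 1, 135766119 to 135769136, plus strand). Its normalised read counts varied most in controls, with 21.3, 1.35 and 56.2 in batch 1 and 201 (replicate 1), 24.3 and 12.6 in batch 2. The mutants had 184 and 78.7 in batch 1 and 165, 80.8 and 99.5 in batch 2. Every mutant was thus above 5 of the 6 controls, and none was above replicate 1. *Phlda3* had a log2 fold change of 1.34 ± 0.90 (SE, DESeq2 adjusted p = 0.581) with all embryos and of 2.47 ± 0.55 (SE, DESeq2 adjusted p = 0.00172) without that control. Without mutant replicate 4 it was 0.90 ± 0.99 (SE, DESeq2 adjusted p = 0.817).

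*Trp53inp1* encodes a stress-induced protein with roles in apoptosis and autophagy (chromosome 4, 11156431 to 11174379, plus strand). In batch 1 it had normalised read counts of 176, 84.8 and 122 in controls and 259 and 171 in mutants. In batch 2 they were 964 (replicate 1), 372 and 665 in controls and 511, 324 and 514 in mutants. The groups overlapped in both batches. *Trp53inp1* had a log2 fold change of 0.02 ± 0.32 (SE, DESeq2 adjusted p = 0.995), made up of 0.75 ± 0.41 in batch 1 and -0.57 ± 0.36 in batch 2. The test of this difference between batches gave -1.32 ± 0.56 (SE, DESeq2 unadjusted p = 0.0188, adjusted p = 0.948).

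*Bbc3* encodes PUMA, a BH3-only protein that triggers apoptosis (chromosome 7, 16308393 to 16318205, plus strand). It was close to the limit of detection, with normalised read counts from 0 to 17.5 in controls and from 0.755 to 7.8 in mutants. Its baseMean was 5.18, and 2 of the 11 embryos had at least 10 expected counts. DESeq2 estimated the log2 difference at -0.91 ± 1.19 (SE; 95% interval -3.24 to 1.42) and gave no adjusted p. With limma on log2(TPM + 1) the difference was -0.61 ± 0.48 (SE, adjusted p = 0.73).

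Control replicate 1 was singled out after the values were seen. It held the highest normalised read count of all 11 embryos for 4 of the 9 tested genes (*Mdm2*, *Mdm4*, *Phlda3* and *Trp53inp1*), where it was the highest embryo for 16.9% of all genes tested. Among the further p53 target genes described below it was the highest for 6 of 32, which is near that share of all genes. It was the lowest of the 11 for *Perp* (55.5), *Steap3* (23.2) and *Pml* (14.1). The share of all genes for which it was the lowest was not counted. Without it, *Ccng1*, *Cdkn1a*, *Mdm2*, *Aen*, *Phlda3* and *Zmat3* were called higher, 6 of 9, where 0.531% of all genes were called higher in that fit. For the same 6 genes every mutant was above every remaining control of its batch, a pattern found for 1.85% of all genes tested. With control replicate 1 included, the pattern was found for *Ccng1* and for 1.33% of all genes. The 3 genes outside the 6 were *Trp53*, *Mdm4* and *Trp53inp1*. The part of the marker levels of this embryo, given above, in its p53 target levels was not tested.

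**Figure D3:**
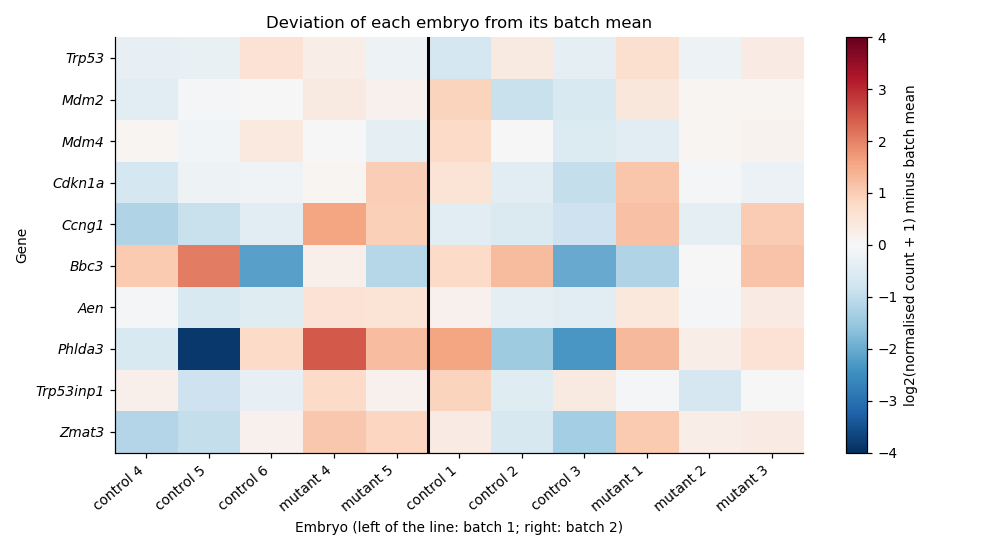
Deviation of log2(normalised count + 1) from the mean of the embryo's own batch, for each gene (rows) and embryo (columns, batch 1 left of the line and batch 2 right of it), with red above and blue below the batch mean. In batch 1, *Mdm2*, *Cdkn1a*, *Ccng1*, *Aen*, *Phlda3* and *Zmat3* are higher in both mutants than in all 3 controls. The share of all genes with this pattern in batch 1 alone was not counted. In batch 2, control replicate 1 is above the batch mean for all genes except *Trp53* and *Ccng1*.

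The batches differed in the level of some of these genes. In controls the mean normalised read count of batch 2 was 5.23 times that of batch 1 for *Trp53inp1* and 3.75 times for *Cdkn1a*. It was 3.02 times for *Phlda3*, 2.12 times for *Zmat3* and 2.03 times for *Ccng1*. In mutants the ratios of these genes, in the same order, were 2.09, 2.92, 0.876, 1.46 and 1.20. The blood and oviduct marker sums given above were also higher in every batch 2 embryo than in every batch 1 embryo. The cumulus and granulosa sum was lower in every batch 2 embryo. The part of these sums in the ratios was not tested. Every batch 2 embryo was above every batch 1 embryo of its group for 2 of the 9 tested genes, *Cdkn1a* and *Trp53inp1*, a pattern found for 8.65% of all genes. *Trp53* did not share it, with ratios of 0.737 in controls and 1.01 in mutants. The batch by group interaction was called for 0 of the 9 tested genes by DESeq2 and by edgeR. Over all genes, DESeq2 called it for 0.0668% and edgeR for 0 of 10542. Of the 9 tested members, *Trp53inp1* was the only one with an unadjusted DESeq2 interaction p under 0.05, where 4.30% of all genes had one.

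A further 40 p53 target genes, listed by symbol for their roles in arrest, repair, death and metabolism, were counted in the same fit. This list and that of the p53 regulators below were also chosen with earlier results of these data known. DESeq2 called 0 of the 32 that could be tested higher and 0 lower, where 0.574% and 0.890% of all genes were called. edgeR also called 0, where it called 0.0759% of all genes higher and 0.247% lower. These shares come to less than 1 gene in a list of 32. At an unadjusted p under 0.05, DESeq2 had 7 higher, against 5.74% of all genes, and edgeR 6 higher, against 4.70%, and both had 0 lower. limma on log2(TPM + 1) also called 0 of the 35 it tested, with 8 higher, against 4.71% of all genes, and 0 lower at an unadjusted p under 0.05. The log2 fold change was above 0 for 22 of the 32, against 49.8% of all genes, with a median of 0.16. The 5 with the smallest p, all above 0, were *Sesn2*, *Dcxr*, *Perp*, *Polk* and *Gtse1*. *Sesn2* encodes a stress-induced inhibitor of mTORC1 signalling and had a log2 fold change of 0.83 ± 0.28 (SE, DESeq2 adjusted p = 0.118). *Dcxr*, a carbonyl reductase, had 1.06 ± 0.38 (DESeq2 adjusted p = 0.146). *Perp*, a membrane protein of apoptosis and desmosomes, had 0.90 ± 0.34 (DESeq2 adjusted p = 0.199). *Polk*, a translesion DNA polymerase, had 1.27 ± 0.56 (DESeq2 adjusted p = 0.301), and *Gtse1*, a microtubule-associated protein that restrains p53, had 0.69 ± 0.30 (DESeq2 adjusted p = 0.305). Without control replicate 1, *Polk* (2.00 ± 0.49, DESeq2 adjusted p = 0.00838) and *Eda2r*, a death receptor (2.84 ± 0.70, DESeq2 adjusted p = 0.00889), were called higher, 2 of the 33 then tested, where 0.531% of all genes were. Leaving out other controls gave other calls. Without control replicate 2 they were *Perp* (1.25 ± 0.31, DESeq2 adjusted p = 0.00692) and *Ephx1*, an epoxide hydrolase (3.86 ± 1.06, DESeq2 adjusted p = 0.0186), again 2 of 33, where 1.50% of all genes were called higher. *Sfn*, which encodes 14-3-3 sigma, was called without control replicate 3 (0.53 ± 0.15, DESeq2 adjusted p = 0.0477), where 0.448% of all genes were, and *Sesn2* without control replicate 4 (0.98 ± 0.27, DESeq2 adjusted p = 0.033), where 0.510% were.

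**Figure D4:**
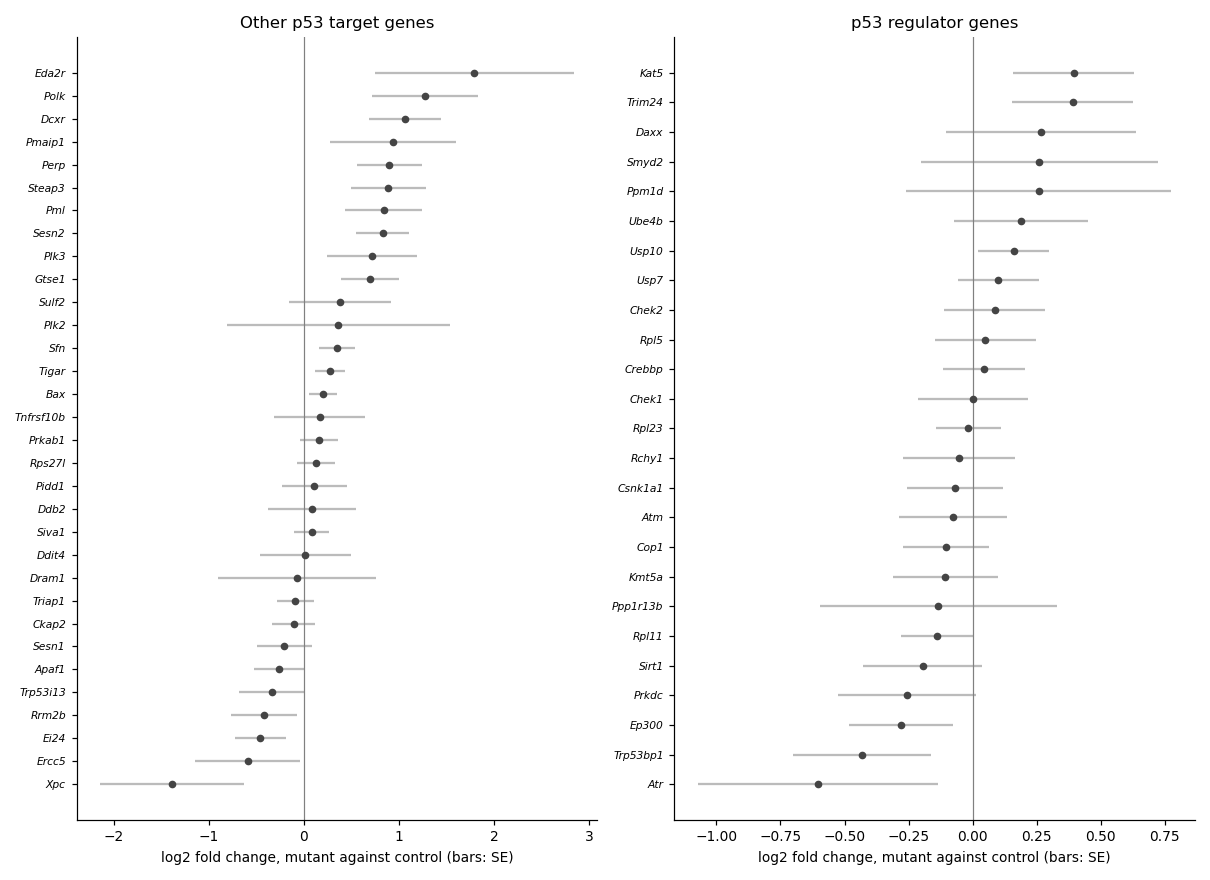
Log2 fold change between mutants and controls with bars of 1 SE for the 32 further p53 target genes (left) and the 25 p53 regulator genes (right) that could be tested in all 11 embryos, each in order of size. None passed the threshold, and 22 of the 32 targets and 12 of the 25 regulators are above 0.

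Genes that act on p53 were counted likewise, including the kinases of the DNA damage response, acetyltransferases, ubiquitin ligases and the ribosomal proteins that bind MDM2. Of 32 listed, 25 could be tested. DESeq2 called 0 higher and 0 lower, where 0.574% and 0.890% of all genes were called, and edgeR also called 0. With both tools 0 had an unadjusted p under 0.05, where DESeq2 had 5.74% of all genes higher and 6.20% lower at that threshold. The log2 fold change was above 0 for 12 of the 25, against 49.8% of all genes, with a median of -0.017. The 5 with the smallest p had log2 fold changes of 0.39 ± 0.23 for the acetyltransferase gene *Kat5*, 0.39 ± 0.24 for the ubiquitin ligase gene *Trim24*, -0.43 ± 0.27 for *Trp53bp1*, which acts at DNA breaks, -0.28 ± 0.20 for the acetyltransferase gene *Ep300* and -0.60 ± 0.47 for the checkpoint kinase gene *Atr* (all SE). Their DESeq2 adjusted p values lay between 0.527 and 0.661. The *Atr* estimate depended on single embryos, ranging from -0.999 to -0.115 with 1 embryo left out.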

How the data were processed

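Single-embryo RNA-seq libraries were made by the authors with a Smart-seq2 protocol, without molecular identifiers. Per the labels, reads were mapped to GRCm38.p6 with STAR (2.6.0c) and quantified with RSEM. The deposited table of each embryo holds the RSEM expected count (an estimated count that need not be whole), the TPM and the effective length of each gene, the last used for an offset. The authors' deposited comparison table holds DESeq2 (1.22.2) results and was not used. Coordinates are from a GENCODE annotation of GRCm38 and promoter windows from RefSeq.

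Expected counts were rounded and tested with DESeq2 (1.42.0) in R (4.3.3), with batch and group as terms. Fold changes were not shrunken. Benjamini-Hochberg adjustment ran over all 10448 genes with a baseMean above 10 and an adjusted p. Normalised read counts are counts divided by DESeq2 size factors. Replicate numbers only name embryos within a group. The interaction of batch and group was fitted likewise. Alternatives were edgeR (4.0.16), limma (3.58.1) on log2(TPM + 1), TMM factors, other filters, no batch term, each batch alone, a length offset and leaving out each embryo. The DESeq2 and edgeR fits were also run on simulated data, whose outcome is not given here.

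The members and lists were chosen with earlier results of these data known. Named were all members, *Prdm10*, *Wrap53* and, from both lists, every gene called with all 11 embryos (there was none) and the 5 with the smallest unadjusted p. *Eda2r*, *Ephx1*, *Sfn*, *Steap3*, *Pml*, *Hba-a1*, *Hbb-bs*, *Alas2*, *Lyz2*, *Ptprc*, *Ovgp1*, *Oosp1*, *Nanog*, *Pou5f1* and *Amhr2* were named after their values were seen.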

Additional observations from a re-analysis of the deposited data

Results flagged for a closer look

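Each gene named by rule was examined for an embryo that stood apart from the others of its group, by the size of its gap relative to the range of the group. Of 44 groups of values, 8 held such an embryo, where chance is taken to give about 1 in 20. By the same measure 8.41% of all genes tested held such a control and 6.69% such a mutant. The 44 groups share their embryos and mix both batches, so the number was not tested against chance. In 4 of the 8 it was control replicate 1. Its normalised read count of *Mdm2* was 813, where the other controls lay between 235 and 342. For *Mdm4* it was 1505, against 516 to 877, for *Phlda3* 201, against 1.35 to 56.2, and for *Polk* 123, against 6.56 to 31.0. Control replicate 3 had an *Atr* count of 219, where the other controls lay between 32.3 and 72.9. Among mutants, replicate 1 had a *Zmat3* count of 160.0, against 73.5 to 96.6 in the others. Mutant replicate 3 had a *Dcxr* count of 135, against 45.3 to 57.2, and mutant replicate 5 a *Perp* count of 676, against 232 to 345.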

How the results depend on the processing

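*Ccng1* stayed higher under all alternatives and lost the threshold in limma on log2(TPM + 1) (adjusted p = 0.0966) and in batch 2 alone (DESeq2 adjusted p = 0.112), so that 0 members were called there. With 1 embryo left out, 1 to 6 members were called higher. The 6 came without control replicate 1, 2 without mutant replicate 2 (*Aen* added, with 0.308% of all genes called higher) and 2 without control replicate 6 (*Zmat3* added, with 0.432% of all genes called higher, *Phlda3* then having no adjusted p). Of the further p53 targets, 0 to 2 were called higher with 1 embryo left out. No member, further target or regulator was called lower in any of these fits. Over all genes, the calls were 60 higher and 93 lower with DESeq2, 8 and 26 with edgeR, 1 and 21 with limma, 15 and 40 with no batch term, 34 and 47 in batch 1 alone and 14 and 37 in batch 2 alone. With 1 embryo left out they ranged from 32 to 159 and from 59 to 121, the highest without control replicate 2. The direction of *Trp53inp1* turned with limma (-0.094), no batch term (-0.16), batch 2 alone (-0.57) and the length offset (-0.12), and with 1 embryo left out it ranged from -0.23 to 0.26. *Wrap53* turned in batch 1 alone (-0.22) and ranged from -0.029 to 0.18 with 1 embryo left out, and *Atr* turned in batch 1 alone (0.48). The causes were not tested. No paired analysis was possible because the replicate numbers are not in the labels. With an effective-length offset *Prdm10* passed the threshold (-1.29). Precision is limited by the 5 mutants and 6 controls, and reads copied by PCR were not told apart from molecules.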
